A study of Mus musculus with 12 samples.

Results

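The colony-stimulating factor receptors and Csf1 are 8 genes of the 18376 listed for mouse bone marrow-derived macrophages (BMDMs). They were chosen by name as the receptors for M-CSF (Csf1r), GM-CSF (Csf2ra and Csf2rb), G-CSF (Csf3r), FLT3 ligand (Flt3), and stem cell factor (Kit). With them were chosen Csf2rb2, the IL-3-specific relative of Csf2rb, and Csf1, the gene for M-CSF itself. All 8 were listed, and all 8 passed the filter for testing, a mean of at least 5 normalized counts across the 12 libraries, as did 14318 genes in total.

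BMDMs are macrophages grown in vitro from bone marrow progenitor cells, here of adult wild-type C57BL/6J mice. Every culture of all 4 groups received 50 ng/ml mouse M-CSF. CTRL cells received nothing else, Act cells 50 ng/ml activin A, FST cells 250 ng/ml FST288, and Act+FST cells both, each for 6 days, with 3 libraries per group. Activin A is a TGF-β family cytokine, and FST288 is a form of follistatin, which binds activin and blocks its access to the receptors. Normalized counts are gene counts that the authors rescaled for each library and rounded, and their totals ranged from 5643708 to 5955400 per library. Nothing in the labels says whether libraries of a group came from separate mice or cultures, so p-values measure only the spread between these libraries, which may be technical. The macrophage markers were abundant in every library: the sum over 8 of 8 genes was between 10543 and 12351, led by Mrc1 (mannose receptor) with a mean of 3053. Lymphocyte markers were near 0, with sums of 4 to 17 over the 3 of 5 genes listed.

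M-CSF binds CSF1R, a receptor tyrosine kinase of the same family as KIT and FLT3, and this signal keeps macrophages alive and drives their differentiation. GM-CSF and G-CSF use receptors without a kinase of their own, which act through JAK kinases and STAT transcription factors. KIT and FLT3 mark early blood progenitors and are lost as these mature into macrophages, whereas CSF1R is gained and kept.

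The GM-CSF receptor is made of a specific α chain (Csf2ra) and a β chain that also serves IL-3 and IL-5. Mice have a second, IL-3-specific β chain, Csf2rb2. Its gene lies beside Csf2rb on chromosome 15, with 20030 bases between them (GRCm38 in the GENCODE annotation, Csf2rb at 78325752 to 78353847 on the plus strand and Csf2rb2 at 78282507 to 78305721 on the minus strand). Their coding sequences were identical at 2503 of 2628 aligned bases (95.2%). Reads here were 75 bases long and reads aligning to several positions had been left out, so the sequences decide how many reads can be assigned to each gene. Of 1494 aligned windows of 75 bases within an exon, 335 did not differ between the genes, the median window differed at 2 bases, and the most divergent at 14. Examples of these 3 cases are printed from the coding strand, with differing bases in capitals. The window without a difference is at chr15:78341391-78341465 in Csf2rb and chr15:78291844-78291918 in Csf2rb2, that with 2 differences at chr15:78335207-78335281 and chr15:78298155-78298229, and that with 14 at chr15:78338905-78338979 and chr15:78294352-78294426.
Csf2rb, no difference: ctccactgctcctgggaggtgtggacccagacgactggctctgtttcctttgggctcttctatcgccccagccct
Csf2rb2, no difference: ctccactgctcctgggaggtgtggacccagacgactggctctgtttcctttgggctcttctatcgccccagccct
Csf2rb, median: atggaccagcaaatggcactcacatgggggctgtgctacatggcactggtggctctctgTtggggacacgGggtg
Csf2rb2, median: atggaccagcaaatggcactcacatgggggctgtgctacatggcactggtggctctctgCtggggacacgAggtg
Csf2rb, most: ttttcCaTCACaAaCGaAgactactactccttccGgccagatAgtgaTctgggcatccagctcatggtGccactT
Csf2rb2, most: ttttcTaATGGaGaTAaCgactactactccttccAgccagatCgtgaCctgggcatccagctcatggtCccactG

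A whole read from the first pair of windows fits both genes equally and would have been left out, whereas 1 from the last pair has 14 bases that tell the genes apart. Over all annotated transcripts, 518 sequences of 75 bases occurred in both genes, which was 7.15% of those of Csf2rb and 10.6% of those of Csf2rb2. The counts of both genes therefore leave out part of their RNA, and a read misassigned between them cannot be seen in these values. Of Csf1r, 15.1% of the exonic bases overlap Hmgxb3 on the opposite strand, and the strand setting of the counting is not given in the sources used here. The level of Hmgxb3 was 450.7 ± 5.51 in CTRL and 478 ± 44.1 in Act (mean ± SD, n = 3, adjusted p = 0.553). The exons of Csf1, Csf2ra, Flt3, and Kit overlap no other gene and shared no 75-base sequence with one, and Csf3r shared 3.13% of its 75-base sequences with other genes.

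The M-CSF receptor led the members when levels were divided by exonic length. Its mean over the 12 libraries was 580 normalized counts per kb, rank 26 of the 14309 genes with a length, where the median gene had 61.9 and the highest, Psap (a lysosomal protein precursor), 883. On this per-kb scale Csf2rb2 followed with 373, Csf3r with 331, Csf2rb with 265, and Csf2ra with 254. The ligand gene Csf1 stood at 69.7, close to the median gene. Kit (4.68) and Flt3 (3.52), the receptors of early progenitors, were the lowest members. In the CTRL cultures, which received M-CSF alone, the means per kb were 387 for Csf2rb2, 306 for Csf3r, 264 for Csf2rb, and 252 for Csf2ra. The order among those 4 rests on lengths and, for the β chains, on reads that could be assigned. The highest gene had 0.883 counts per exonic base. If reads that started at the same position were counted once, distances between high levels are compressed on this scale, which was not tested.

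**Figure D1:**
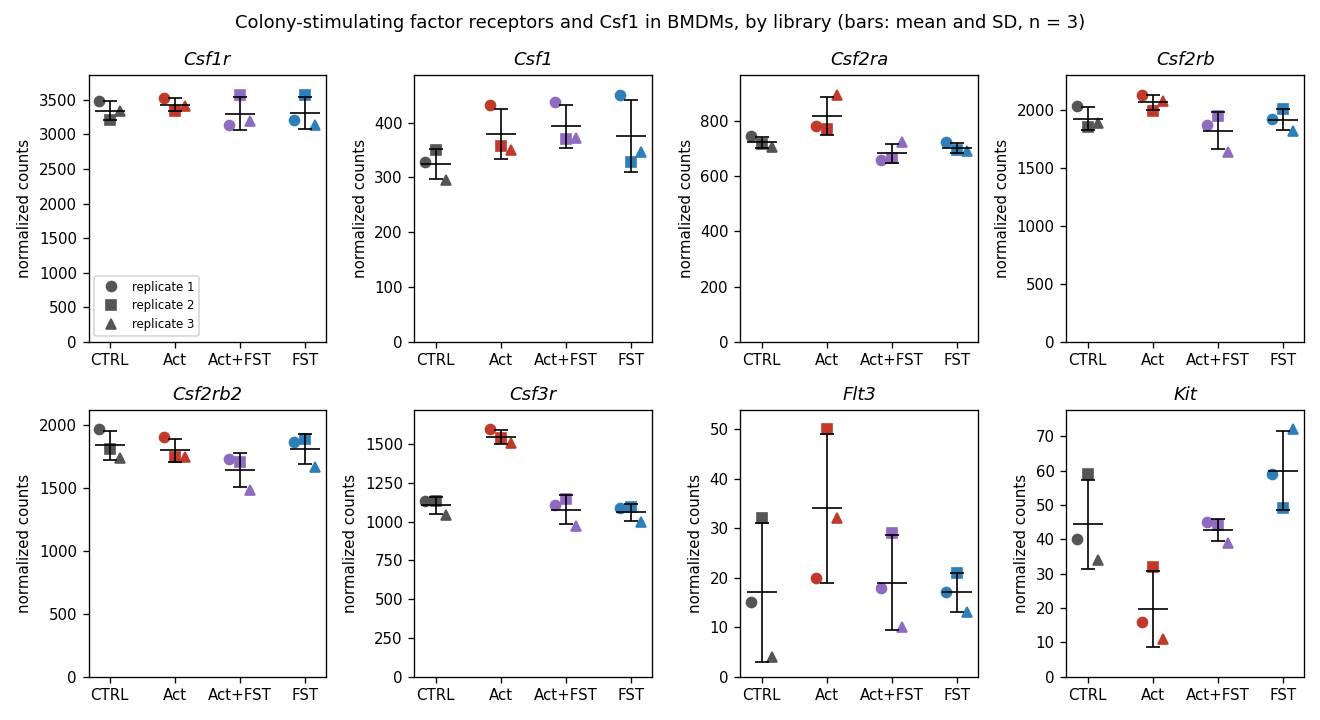
Normalized counts (vertical axes, starting at 0) of the 8 members in CTRL, Act, Act+FST, and FST (horizontal axes), with a symbol per library, its shape giving the replicate number, and bars for mean and SD (n = 3). Csf3r in Act lies between 1505 and 1595, above all 9 other libraries, and Kit in Act lies between 11 and 32, below them.

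Under activin A the M-CSF receptor gene was not called, while 2 other receptor genes changed in opposite directions. The G-CSF receptor Csf3r was 1.40-fold higher in Act than in CTRL, and Kit was 2.34-fold lower. Of the 8 members, 1 was called higher, where 10.3% of all genes tested were, and 1 lower, where 9.97% were. Calls rest on limma with Benjamini-Hochberg adjustment over all genes tested, at an adjusted p of at most 0.05. The share of members called was thus near the background, and Kit alone was also changed at least 2-fold, as 5.66% of all genes were. With the replicate number as a block, an alternative fit, 5 of 8 members were called, at a background of 31.5%. Libraries with the same number deviated together. The groups did not overlap for 3 of 8 members (Csf2ra, Csf3r, and Kit), against 35.7% of all genes.

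Csf3r, at chr4:126024550-126044440 on the plus strand, encodes the G-CSF receptor, best known for driving the production of neutrophils. CTRL libraries held 1133, 1135, and 1044 normalized counts and Act libraries 1595, 1538, and 1505. Act+FST libraries held 1109, 1147, and 969, and FST libraries 1088, 1091, and 997. Every Act library was above all 9 others, and the other 3 groups overlapped. The log2 fold change of Act versus CTRL was 0.49 (SE 0.063, 95% confidence interval 0.35 to 0.62, limma adjusted p = 0.000184), and the rise was seen in 3 of 3 pairs of libraries with the same replicate number. Act versus Act+FST gave 0.53 (SE 0.063, limma adjusted p = 9.91e-05). These values are on the deposited scale. With a correction for reads that started at the same position, Csf3r was 0.615 higher against CTRL on the log2 scale (limma adjusted p = 0.000103). Neutrophil markers are given beside it: of 8 tested, 0 were called by limma in either comparison (with the replicate block, 2 were higher in Act than in CTRL), and their sum was 1237 to 1455 in CTRL and 1269 to 1769 in Act. The most abundant of them, Mmp8 (a neutrophil collagenase), had a log2 fold change of 0.23 against CTRL (adjusted p = 0.129). With the replicate block Mmp8 was called higher against CTRL (adjusted p = 0.0116) and against Act+FST (adjusted p = 0.00823). Ly6g, the defining surface marker, stayed between 2 and 12 in every library. Over all genes tested, 10.3% were called higher and 9.97% lower against CTRL, and 31.5% in either direction with the block. In bulk RNA, fewer or more cells of a type cannot be told apart from less or more RNA per cell, which holds for each member here.

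Kit, at chr5:75574916-75656722 on the plus strand, encodes the stem cell factor receptor. It was scarce: CTRL libraries held 40, 59, and 34 normalized counts, and Act libraries held 16, 32, and 11. Act+FST libraries had 45, 44, and 39 and FST libraries 59, 49, and 72. The Act libraries were the 3 lowest of the 12, although replicate 2 came within 2 counts of the lowest CTRL library. The log2 fold change was -1.23 for Act versus CTRL (SE 0.321, 95% confidence interval -1.92 to -0.53, limma adjusted p = 0.0171) and -1.21 for Act versus Act+FST (SE 0.321, limma adjusted p = 0.0171). The call against CTRL depended on single libraries: without Act replicate 1 the adjusted p was 0.0564, without Act replicate 3 it was 0.0701, without CTRL replicate 2 it was 0.0743, and in a model of the 6 libraries compared it was 0.0568. With the replicate block it was 0.00385. Against Act+FST the adjusted p was 0.0564 without Act replicate 1 and 0.0721 without Act replicate 3.

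Progenitor markers were measured beside Kit, since Kit is itself a progenitor gene. Of 6 tested in Act versus CTRL, 2 fell, Mpo (myeloperoxidase, log2 fold change -2.02, adjusted p = 0.00923) and Elane (neutrophil elastase, -1.64, adjusted p = 0.0253), both enzymes made by granulocyte and monocyte precursors. In contrast, Cd34, a surface protein of stem and progenitor cells and also of endothelial and stromal cells, rose from 11, 15, and 9 to 50, 26, and 54 normalized counts (1.77, adjusted p = 0.00317). The remaining 3 were not called. They were Prtn3 (proteinase 3, an enzyme of the same precursors), at -1.07 without overlap of the groups (adjusted p = 0.0807, with the replicate block 0.00197), the most abundant marker Meis1 (a transcription factor of stem cells), at -0.47 (adjusted p = 0.0519, with the replicate block 0.017), and Ctsg (cathepsin G), at -0.79 (adjusted p = 0.416). The replicate block thus called 4 of 6 lower and 1 higher. Over all genes tested, 9.97% were called lower and 10.3% higher against CTRL, and 31.5% in either direction with the block. Against Act+FST, 3 of 6 were called lower, Mpo, Elane, and Prtn3 (-1.31, limma adjusted p = 0.0335), and Cd34 higher. There 10.2% of all genes were called lower and 11.1% higher. The sum over the list was 222 to 434 in CTRL, 142 to 187 in Act, 227 to 352 in Act+FST, and 247 to 403 in FST. The part of these cells in the Kit result was not tested. Mast cells also carry KIT. Of their 7 markers 4 were listed, with sums of 20 to 45 in CTRL and 8 to 44 in Act. Cpa3, a mast cell protease, was between 0 and 9, and Hdc (histidine decarboxylase), the only 1 tested, had a log2 fold change of -0.35 (adjusted p = 0.679).

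**Figure D2:**
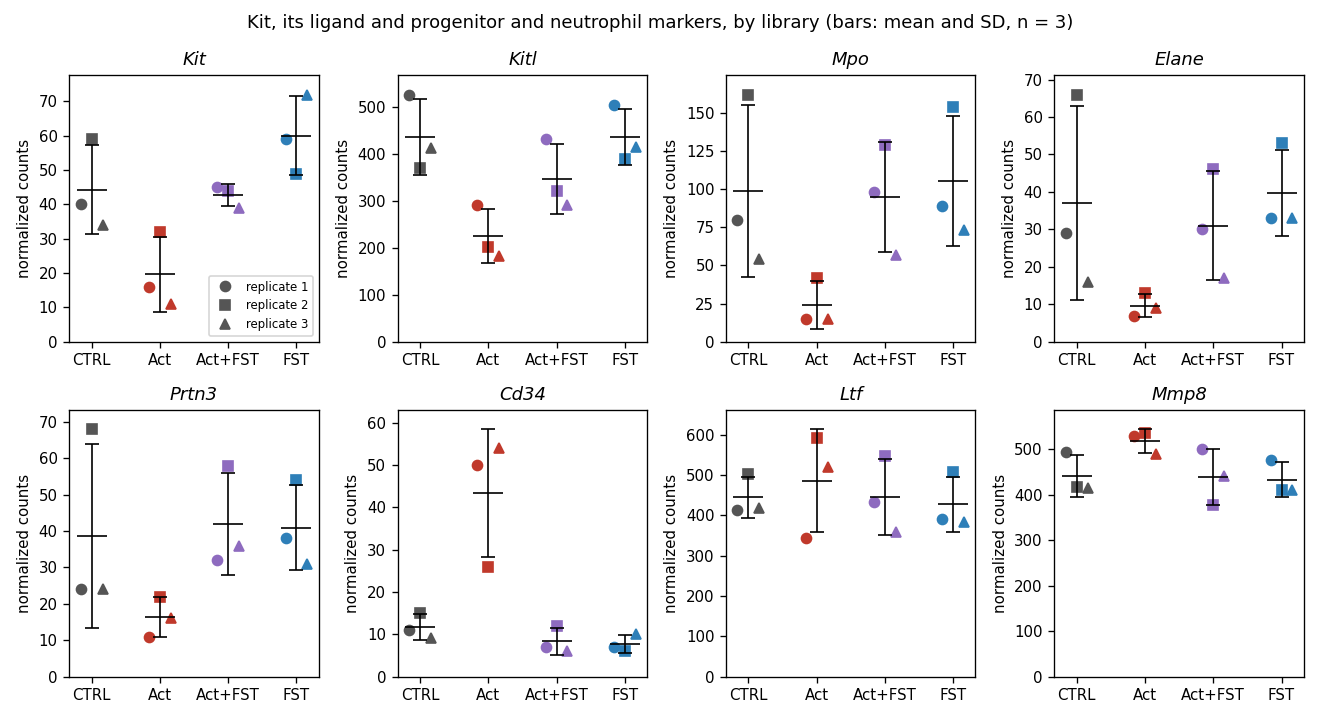
Normalized counts (vertical axes, starting at 0) of Kit, its ligand gene Kitl, progenitor markers (Mpo, Elane, Prtn3, Cd34), and neutrophil markers (Ltf, Mmp8) by group, with symbols for replicate numbers and bars for mean and SD (n = 3). Kit, Mpo, and Elane lie lowest in Act, and Cd34 lies highest there at 26 to 54. Ltf overlaps between all groups, while Mmp8 in Act overlaps CTRL and Act+FST and lies above FST.

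Flt3, at chr5:147330741-147400489 on the minus strand, encodes the receptor for FLT3 ligand, which supports early progenitors and dendritic cells. Its normalized counts were 15, 32, and 4 in CTRL, 20, 50, and 32 in Act, 18, 29, and 10 in Act+FST, and 17, 21, and 13 in FST. Replicate 2 was the highest library in each group, and the Act and CTRL groups overlapped. The log2 fold change of Act versus CTRL was 1.25 with an interval from -0.03 to 2.53 (limma adjusted p = 0.165), which includes no change as well as a 5.76-fold rise. With the replicate block it was called (adjusted p = 0.0209). Without CTRL replicate 3, which had 4 counts, it was 0.51, and without CTRL replicate 2 it was 1.88 and called (adjusted p = 0.0383). Of 7 dendritic cell markers tested, 1 was called, Cd209a (a lectin of monocyte-derived dendritic cells), which fell by 2.27 on the log2 scale (adjusted p = 0.0111), and the most abundant, Itgax (CD11c), was at -0.48 (adjusted p = 0.0874). With the replicate block 2 were called higher, Dpp4 (CD26, 0.99, adjusted p = 0.00117) and Siglech (a lectin of plasmacytoid dendritic cells, 0.67, adjusted p = 0.0111), and 2 lower, Cd209a and Itgax (adjusted p = 0.00336). Their sum was 580 to 807 in CTRL, 564 to 600 in Act, 318 to 524 in Act+FST, and 547 to 624 in FST, and their part in the Flt3 result was not tested. Over all genes tested, 10.3% were called higher and 9.97% lower against CTRL, and 31.5% in either direction with the block.

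Csf1r, at chr18:61100598-61132149 on the plus strand, was at 3491, 3206, and 3341 normalized counts in the CTRL libraries and at 3530, 3342, and 3418 with activin A. Act+FST libraries had 3134, 3578, and 3195 and FST libraries 3211, 3570, and 3140. All 4 groups overlapped. The log2 fold change of Act versus CTRL was 0.04 with an interval from -0.10 to 0.18 (limma adjusted p = 0.761), so that a rise above 1.13-fold or a fall below 0.93 of the CTRL level lies outside the interval. The coefficient of variation over all 12 libraries was 5.03%, the lowest of the 8 members. The interval and this coefficient are on the deposited scale, where change and spread may be compressed for genes with this many counts per exonic base. With a correction for reads that started at the same position, the log2 fold change was 0.058 (limma adjusted p = 0.751). Of 8 macrophage markers, 1 rose in Act versus CTRL, Cd14 (a coreceptor for lipopolysaccharide, 0.23, limma adjusted p = 0.0259), and 1 fell, Mrc1 (-0.51, limma adjusted p = 0.000117), and their median was 0.01. Over all genes tested, 10.3% were called higher and 9.97% lower. The genes whose levels followed Csf1r most closely over the 12 libraries were C1qb (a complement subunit made by macrophages, r = 0.979), Cst3 (cystatin C, 0.970), and Unc93b1 (a carrier of Toll-like receptors, 0.967), out of 10628 genes with a mean of at least 50.

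Csf1, at chr3:107741048-107760469 on the minus strand, encodes M-CSF, which all cultures also received as protein. CTRL libraries had 328, 350, and 296 normalized counts, Act libraries 432, 357, and 349, Act+FST libraries 438, 370, and 371, and FST libraries 451, 328, and 347. CTRL had the lowest mean, 325 against 375 to 393 in the treated groups. Act versus CTRL gave a log2 fold change of 0.22 (95% confidence interval -0.04 to 0.48, limma adjusted p = 0.239, with the replicate block 0.0352). Act+FST versus CTRL gave 0.27 (limma adjusted p = 1, with the replicate block 0.13), and Act versus Act+FST -0.05 (adjusted p = 0.817). The 3 libraries above 400 were replicate 1 of Act, Act+FST, and FST. The same 3 libraries had the most Col1a2 (a collagen of stromal cells), 109, 58, and 58 normalized counts, where the other 9 libraries had 0 to 24. Col1a1, another collagen gene, was also highest there, at 83, 28, and 35. Cxcl12 (a chemokine of marrow stroma) was not, with 13, 38, and 36 there and 50 in FST replicate 2. Nor was Kitl, with 291, 431, and 503 there and 526 in CTRL replicate 1. Of 8 stromal markers 7 were listed, and their sum was 410 to 603 in CTRL, 210 to 504 in Act, 328 to 559 in Act+FST, and 445 to 646 in FST. The largest part of this sum was Kitl, itself a ligand gene of these receptors, and Dcn (decorin) was between 0 and 8. The part of stromal cells in Csf1 was not tested.

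The GM-CSF receptor genes and the IL-3-specific Csf2rb2 are described next, the α chain first. Csf2ra, at chr19:61223957-61228429 on the minus strand, was at 745, 716, and 706 normalized counts in CTRL, 783, 771, and 895 in Act, 657, 666, and 723 in Act+FST, and 722, 693, and 690 in FST. The Act libraries were above all 9 others. Act versus CTRL gave a log2 fold change of 0.17 (SE 0.058, 95% confidence interval 0.05 to 0.30), which fell just short of the threshold (limma adjusted p = 0.0525) and passed it with the replicate block (adjusted p = 0.0172). Act versus Act+FST gave 0.26 (SE 0.058, limma adjusted p = 0.00681), a 1.20-fold rise.

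Csf2rb, the shared β chain, was at 2034, 1854, and 1883 normalized counts in CTRL libraries and at 2123, 1990, and 2077 in Act libraries, which overlapped. Act+FST libraries had 1866, 1949, and 1640 and FST libraries 1924, 2004, and 1818. The log2 fold change was 0.10 for Act versus CTRL (limma adjusted p = 0.318) and 0.19 for Act versus Act+FST (limma adjusted p = 0.061, with the replicate block 0.0115). Csf2rb2 had 1962, 1808, and 1737 in CTRL and 1901, 1742, and 1744 in Act. Act+FST libraries had 1726, 1706, and 1483 and FST libraries 1863, 1883, and 1667. Here Act and CTRL lay side by side (log2 fold change -0.03, limma adjusted p = 0.818) and Act+FST was the lowest group, so that Act versus Act+FST gave 0.13 (limma adjusted p = 0.217, with the replicate block 0.0185).

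Since the genes share so much sequence, their ratio was also compared, a measure chosen after the values were seen. Csf2rb relative to Csf2rb2 was 1.037, 1.025, and 1.084 in CTRL, 1.117, 1.142, and 1.191 in Act, 1.081, 1.142, and 1.106 in Act+FST, and 1.033, 1.064, and 1.091 in FST. The Act ratios were above all CTRL and FST ratios and overlapped those of Act+FST. The exact permutation test (two-sided) gave p = 0.1 against CTRL and against FST, the smallest that 3 against 3 libraries allow, and p = 0.3 against Act+FST.

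With FST288 given together with activin A, no member was called against CTRL. In Act+FST versus CTRL 0 of 8 members were called, as were 0% of all genes, by limma, while 655 genes and 2 members (Csf1 and Csf2rb2) had an unadjusted p under 0.05, and the replicate block called 80 genes and 0 members. In FST versus CTRL, again 0 members and 0% of all genes were called by limma, with 299 genes and 0 members at an unadjusted p under 0.05 and 0 genes under the replicate block. Act versus Act+FST called 2 of 8 members higher (Csf2ra and Csf3r), where 11.1% of all genes were, and 1 lower (Kit), where 10.2% were. The replicate block called 5 members at a background of 32.6%, adding Csf2rb and Csf2rb2, and 5 members had groups that did not overlap, against 34.1% of all genes. Act versus CTRL and Act versus Act+FST share the Act libraries, so their values are not independent of each other.

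**Figure D3:**
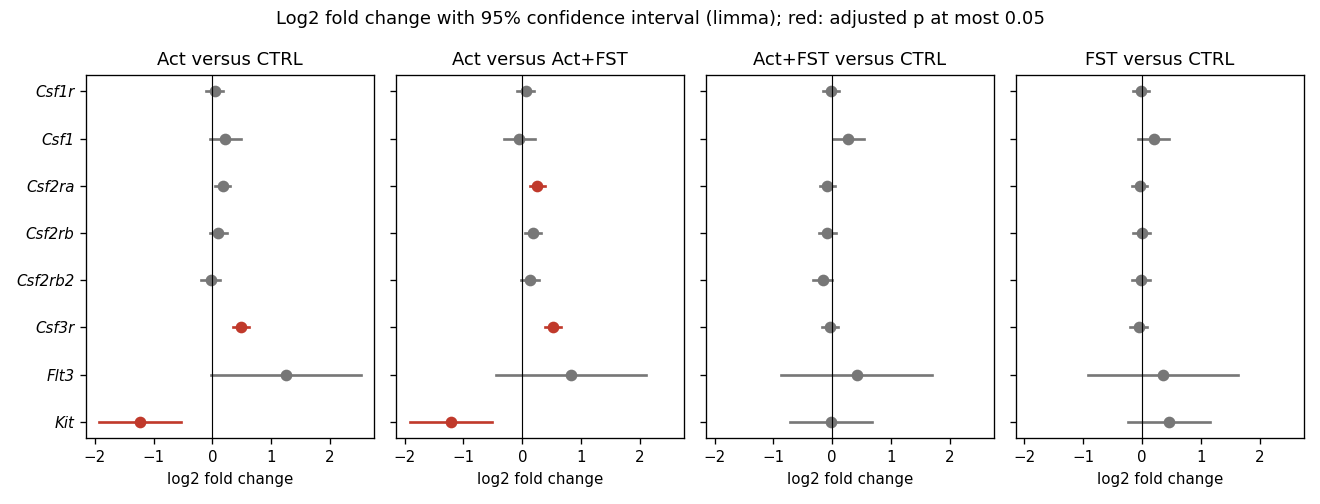
Log2 fold change (horizontal axis) of each member in the 4 comparisons, with points for the estimate and lines for the 95% confidence interval from limma, red where the adjusted p was at most 0.05. Red marks Csf3r and Kit in Act versus CTRL, these and Csf2ra in Act versus Act+FST, and none in the comparisons of Act+FST and FST with CTRL, while the lines of Flt3 and Kit are the widest.

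The change made by activin A was also compared between cultures without and with FST288, as the difference of Act versus CTRL and Act+FST versus FST. Of the 8 members, 1 was called, Csf3r, with a difference of 0.47 on the log2 scale (SE 0.089, 95% confidence interval 0.27 to 0.66, limma adjusted p = 0.00803), against 6.74% of all genes. For Kit the difference was -0.76 (SE 0.453, adjusted p = 0.404) and for Csf2ra 0.22 (SE 0.082, adjusted p = 0.153), so a different response to activin A with FST288 present was not shown for these genes. FST libraries had the highest Kit mean of the 4 groups, 60.0 ± 11.5, and overlapped with CTRL at 44.3 ± 13.1 (mean ± SD, n = 3).

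The ligands and partners of these receptors were taken from a list, of which Il34, Csf2, Csf3, Il3, Il5, Il5ra, and Ptprz1 were not analysed here. Kitl, the stem cell factor that binds KIT, was at 526, 370, and 412 normalized counts in CTRL libraries and at 291, 202, and 182 in Act libraries, without overlap. It fell by 0.97 on the log2 scale (SE 0.189, limma adjusted p = 0.00323), and against Act+FST (431, 320, and 290) by 0.63 (limma adjusted p = 0.0313), although these groups overlapped. Replicate 1 had the most Kitl in each group, and the stromal markers Cxcl12 (a chemokine of marrow stroma, log2 fold change -1.06, adjusted p = 0.0174) and Col1a2 (2.76, adjusted p = 0.31, with the replicate block 0.000473) stood on opposite sides of 0. The part of stromal cells in Kitl was not tested. Flt3l, the ligand of FLT3, had a log2 fold change of -0.11 (adjusted p = 0.703).

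Il3ra, the α chain that pairs with the β chains to bind IL-3, was at 604, 644, and 581 normalized counts in CTRL libraries and at 444, 509, and 442 in Act libraries. It fell by 0.39 on the log2 scale (limma adjusted p = 0.0014) and against Act+FST by 0.33 (limma adjusted p = 0.00406), in the opposite direction to the GM-CSF α chain. Pdgfrb, a related receptor kinase whose gene lies 15536 bases from Csf1r, had 22, 31, and 22 in CTRL and 51, 41, and 43 in Act (0.84, adjusted p = 0.0597, with the replicate block 0.0255). Sdc1 (syndecan-1, a coreceptor for IL-34) had 312, 272, and 165 in CTRL and 441, 408, and 415 in Act (0.80, adjusted p = 0.0656, with the replicate block 0.00056). Both were called higher against Act+FST, Pdgfrb by 1.20 (limma adjusted p = 0.00994) and Sdc1 by 1.57 (limma adjusted p = 0.00182). Pdgfra, the neighbour of Kit, was at 0 in 10 of 12 libraries and was not tested.

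**Figure D4:**
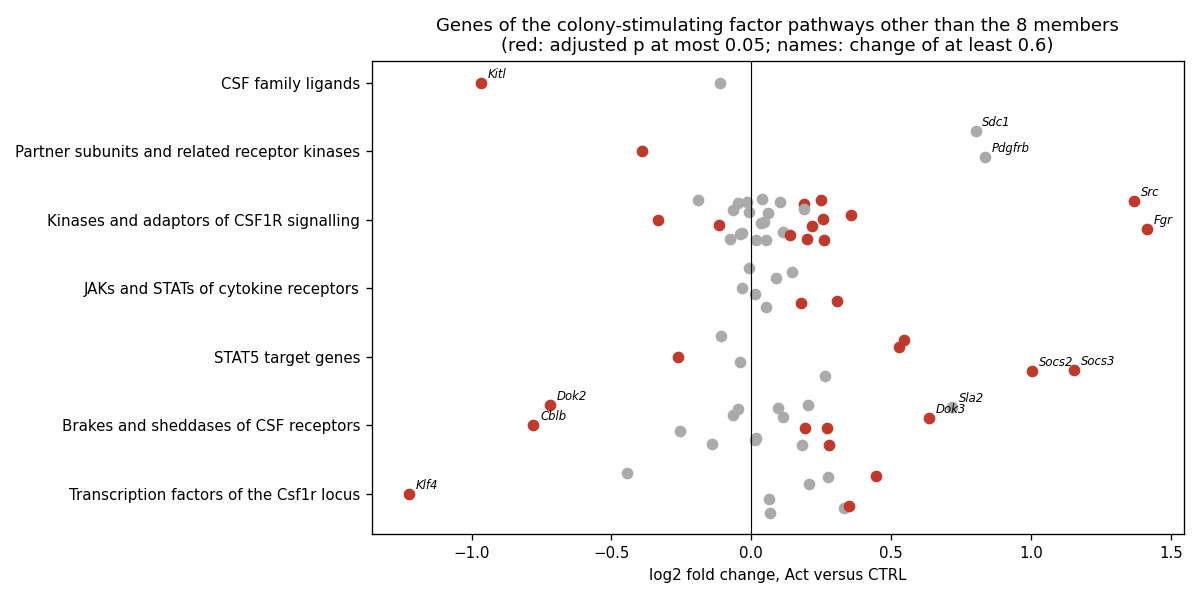
Log2 fold change of Act versus CTRL (horizontal axis) for genes of the ligand, partner, kinase, JAK-STAT, STAT5 target, brake, and transcription factor lists (rows), a point per gene, red where the adjusted p was at most 0.05 and named where the change was at least 0.6 in size. Fgr and Src at 1.41 and 1.37 are the highest points and Klf4 at -1.22 the lowest.

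Downstream of CSF1R, 10 of 29 kinases and adaptors were called higher and 2 lower, where 10.3% of all genes were called higher and 9.97% lower. The median log2 fold change was 0.05 in the list and 0.004 over all genes tested. The SRC family kinases diverged. Fgr rose from 111, 127, and 70 to 285, 243, and 275 normalized counts (1.41, limma adjusted p = 0.00331), and Src from 100, 94, and 76 to 259, 187, and 259 (1.37, limma adjusted p = 0.000461). Fyn, of the same family, fell by 0.34 (limma adjusted p = 0.00393), and Plcg2, a phospholipase recruited by immune receptors, rose by 0.36 (limma adjusted p = 0.000425). Of 8 JAKs and STATs, 2 were called higher and 0 lower (median 0.07), against the same shares of all genes. Stat3, the main STAT of the G-CSF receptor, rose by 0.18 (limma adjusted p = 0.00809).

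Among 8 target genes of STAT5, the transcription factor used by the GM-CSF and IL-3 receptors, 4 rose and 1 fell in Act versus CTRL, with a median of 0.40, where 10.3% of all genes were called higher and 9.97% lower. Socs3, a feedback inhibitor that binds the G-CSF receptor and also a STAT3 target, rose from 116, 131, and 99 to 243, 245, and 282 normalized counts (1.15, limma adjusted p = 0.000339). Socs2 rose by 1.00 (limma adjusted p = 0.00385), Osm (oncostatin M) by 0.55 (limma adjusted p = 0.00147), and Cish by 0.53 (limma adjusted p = 0.0172), while the kinase gene Pim1 fell by 0.26 (limma adjusted p = 0.016). Against Act+FST the median of the list was -0.01. Here 3 genes were called higher, Socs3 (0.89, limma adjusted p = 0.00202), Socs2, and Osm, and 1 lower, Pim1 (-0.38, limma adjusted p = 0.00168), where 11.1% and 10.2% of all genes were, and Cish was not called (0.18, adjusted p = 0.396).

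Of 17 brakes and sheddases, 4 were called higher and 2 lower (median 0.10), against 10.3% and 9.97% of all genes. Cblb, a ubiquitin ligase that marks activated receptors for degradation, fell from 1067, 1027, and 1021 to 669, 618, and 535 normalized counts (-0.78, limma adjusted p = 2.1e-05), and Dok2, an adaptor that dampens RAS signalling, from 513, 491, and 455 to 295, 308, and 281 (-0.72, limma adjusted p = 7.55e-06). Its relative Dok3 rose by 0.63 (limma adjusted p = 0.000104), and Adam17, the protease that releases the CSF1R ectodomain, by 0.28 (limma adjusted p = 0.00396). Of 9 transcription factors known to act at the Csf1r locus or in its cells, 2 were called higher and 1 lower (median 0.21), against the same shares of all genes, while Csf1r itself was not called. Klf4 fell from 165, 153, and 158 to 71, 65, and 66 (-1.22, limma adjusted p = 6.91e-06), and Cebpa, which also acts at the G-CSF receptor gene, rose by 0.35 (limma adjusted p = 0.000198). Spi1 (PU.1) was at 0.07 (adjusted p = 0.336).

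The levels of Csf3r over the 12 libraries were followed most closely by Etv6 (a transcriptional repressor, r = 0.991), Sorl1 (a sorting receptor, 0.99), and Cxcl16 (a chemokine, 0.99). All 3 had their highest mean in Act, Sorl1 with 2478 normalized counts against 1178 in CTRL. For Csf2ra, Nubp1 (0.942) and Gnb5 (0.925) were among the 3 closest. The 3 closest were for Csf2rb Rassf2 (0.982), Cpt1a (0.948), and Glul (0.948), for Csf2rb2 Arhgap25 (0.927), Slc30a1 (0.917), and Il7r (0.912), and for Csf1 Isg20 (0.918), Zscan25 (0.898), and Gm1966 (0.886). The 3 genes closest to each β chain were different. These correlations are descriptions over 12 libraries that share the treatment groups and the scaling, and Kit and Flt3 were too scarce for this measure.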

How the data were processed

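RNA of 12 BMDM libraries (3 per group) was prepared with a stranded mRNA kit and sequenced as single-end reads of 75 bases. The authors trimmed reads with Trimmomatic 0.39, aligned them to mm10 with STAR 2.7.9a, and counted them per gene with featureCounts 2.0.2, omitting reads on several genes or positions. They identified DEGs with DESeq2 1.30.0. The deposited values are a signal that is never negative, namely normalized read counts rounded to whole numbers. Because of the rounding, whole reads were not recovered, so a test for normalized values replaced the count test. Original depth cannot be read from scaled totals.

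Values were tested as log2(normalized count + 1) in R 4.3.3 with limma 3.58.1 (moderated statistics, with a trend), for genes with a mean of at least 5, with 4 group means and all 12 libraries in the fit. Fold changes are on this scale, which understates changes of low genes. P-values were two-sided and adjusted by Benjamini-Hochberg over all genes tested. Genes were called at an adjusted p of at most 0.05. Replicate numbers come from the labels. Deviations from group means correlated in every pair of libraries with the same number (18 pairs, r from 0.157 to 0.481, mean 0.312). A fit with the replicate number as a block had been planned as an alternative to the main fit. The mean of -0.155 over 36 pairs with different numbers follows from subtracting the group means and is not separate evidence. Gene positions and lengths are from GENCODE vM21 on GRCm38, in which 18359 identifiers were found and 17 were not. The model was also run on simulated data with 2-fold changes and no effect shared by replicate number. That run cannot show how the model handles smaller changes or how the block handles such a shared effect.

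All 8 members are named. Of each pathway list, up to 4 called genes with the largest change and a mean of at least 50 are named, with all ligands and partner subunits, and of the marker lists the most abundant gene. Spi1, Hmgxb3, and further markers beside a member were named after their values were seen. A few genes that the rule would name are not reported here. The members and lists were chosen with earlier results of these data known. Alternatives were pseudocounts of 0.5 and 5, no filter and a mean of 50, quantile and TMM scaling, the replicate block, only the groups compared, leaving out each library, a 2-fold threshold, and, chosen after seeing the data, a correction for reads that started at the same position.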

Additional observations from a re-analysis of the deposited data

Results flagged for a closer look

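Csf3r responded to activin A differently without and with FST288, by the test of the difference itself. The change of Act versus CTRL exceeded that of Act+FST versus FST by 0.467 on the log2 scale (SE 0.089, limma adjusted p = 0.00803). All 3 Act libraries (1505 to 1595 normalized counts) were above the libraries of the other groups (969 to 1147). The difference was between 0.39 and 0.59 under every alternative tried, and the adjusted p was at most 0.0263.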

How the results depend on the processing

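Over 40 member results, 592 of 630 alternatives kept direction and side of the threshold, 6 lost the call, 11 gained it, and 21 changed sign, none of these called. In Act versus CTRL the number of members called was 2, and it was 5 with the replicate block, 1 with only the groups compared, 1 at a change of at least 2-fold, and 1 to 3 when a library was left out. In Act versus Act+FST it was 3, and it was 5 with the replicate block, 4 with quantile scaling, 2 at a minimum mean of 50, 1 at 2-fold, and 2 to 4 when a library was left out. Csf2rb was the added call with quantile scaling (adjusted p = 0.043) and without Act+FST replicate 2 (adjusted p = 0.0288). In the difference of activin responses it was 1, and 0 at 2-fold. Csf3r stayed called in Act versus CTRL under all 15 alternatives (log2 fold change 0.45 to 0.62), and Kit lost the call in 4 of 14. The block changed the calls of Csf1, Csf2ra, and Flt3 in Act versus CTRL and of Csf2rb and Csf2rb2 in Act versus Act+FST, and no other. Csf2ra in Act versus CTRL was also called without Act replicate 2 (adjusted p = 0.0407), at a minimum mean of 50, and with the correction for shared start positions (0.0476). A minimum mean of 50 left Kit and Flt3 untested.

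Sign changes concerned uncalled members. With quantile scaling, Csf1r was at -0.006 in Act versus CTRL and at -0.03 in the difference of responses. Leaving out a library, values ranged from -0.073 to 0.018 for Csf2rb2 in Act versus CTRL and from -0.15 to 0.027 for Csf1 in Act versus Act+FST. In Act+FST versus CTRL they ranged from -0.08 to 0.016 for Csf1r, -0.09 to 0.032 for Csf3r, -0.317 to 1.044 for Flt3, and -0.186 to 0.202 for Kit. In FST versus CTRL they ranged from -0.075 to 0.018 for Csf1r, -0.039 to 0.035 for Csf2rb, -0.064 to 0.031 for Csf2rb2, and -0.377 to 0.985 for Flt3, and in the difference of responses from -0.018 to 0.098 for Csf1r. The causes were not tested. Kit and Flt3 had at most 72 normalized counts in any library.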
